A study of Danio rerio with 12 samples.

Results

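Forkhead genes encode transcription factors that share a winged-helix DNA-binding domain and are sorted into subfamilies by letter. The set described here held the genes listed in the expression tables whose symbol begins with fox, a subfamily letter from b to q and a digit, without foxd3, foxh1, foxi1 and foxj1a. It counted 39 of the 14850 genes listed, in 15 subfamilies. Gene expression was measured by RNA-seq of polyA RNA from whole zebrafish embryos of the Ekwill strain, in 12 libraries. TALE KD embryos had been injected at the earliest cleavage stages with morpholino antisense oligos to the 3 TALE genes pbx2, pbx4 and prep1.1 (pknox1.1 in the tables), mixed with water and phenol red dye. Control embryos were of the same strain, described as wildtype and as pooled separately from injected embryos. A control oligo for them is not given in the sources used here, so effects of the TALE KD and of injection cannot be told apart. Each of the 4 groups, TALE KD and control at 12hpf (hours post-fertilization, early segmentation) and TALE KD and control at 6hpf (gastrulation), held 3 libraries. A library was made from a pool of embryos, so a value is an average over all their tissues. A morpholino lowers the protein for a limited time and leaves the gene intact.

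Forkhead factors act as switches of cell fate, and many subfamilies mark 1 tissue of the early embryo. FoxE3 is needed for the lens, FoxI3 for the ionocytes of fish skin, FoxJ1 for motile cilia, FoxC for somites and vessels, FoxF for lateral mesoderm and FoxB1 for the neural tube. Others are less tied to 1 tissue, such as FoxO, which is held out of the nucleus by insulin and Akt signalling, and FoxM1, which drives mitotic genes. The FoxK and FoxP factors mainly repress transcription. The comparisons ask which of these genes depended on the TALE factors at each stage, and which were in use at 12hpf and at 6hpf.

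Library totals lay between 11884805 and 40924982 counts. Among the 12hpf libraries, replicate 3 stood apart in both groups. Its median absolute log2 distance from the other libraries of its group was 0.133 in TALE KD and 0.115 in control embryos, against 0.0809 to 0.0945 for replicates 1 and 2. At 6hpf, where libraries were smaller, this distance was 0.122 to 0.145. TALE KD and control libraries of the same number deviated together at each stage, and values with the replicate number as a block are therefore given where they change a call. The 3 targeted transcripts were not lower in TALE KD embryos. Their log2 fold-changes were 1.5 for pbx2, 0.21 for pbx4 and 0.21 for pknox1.1 at 12hpf and 0.74, 0.05 and 0.19 at 6hpf, and RNA levels do not measure the proteins.

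The unit of all levels is CPM, in which counts are divided by the library total and edgeR's TMM factor. Counts depend on transcript length, so levels are compared between groups for 1 gene and not between genes. Together the 39 genes held 600 to 666 CPM in every library. A mean of at least 1 CPM was reached by 27 of them in TALE KD and 28 in control embryos at 12hpf, and by 16 in TALE KD and 16 in control embryos at 6hpf. Of all genes listed, 70.1% and 70.9% reached that level at 12hpf and 66.8% in each group at 6hpf. A count was found in at least 1 library for 38, 39, 37 and 35 of the 39 genes in the same 4 groups. The gene without a count in the TALE KD libraries at 12hpf was foxq2, which had 1 count in the 12 libraries, in control replicate 2 at 12hpf. Over a group, 3 counts corresponded to 0.0271 CPM in TALE KD, against 0.039 CPM in control embryos at 12hpf, and to 0.0802 CPM and 0.0765 CPM at 6hpf, and lower levels could not be told from absence.

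The make-up of this total differed by stage. The FoxD genes held 10.7% to 12% of the forkhead CPM in the 12hpf libraries and 22.7% to 23.9% in the 6hpf libraries. For the FoxN genes the ranges were 3.89% to 4.55% at 12hpf and 9.84% to 11.3% at 6hpf. Both shares followed foxd5 and foxn2b, the genes with the most counts of their letter. The other tested genes of these letters were higher at 12hpf in both groups. Their log2 fold-changes were 2.69 to 3.01 for foxd1 and foxd2 and 2.54 to 3.23 for foxn3 and foxn4. Of these, only foxd2 averaged 10 or more counts at 6hpf. A share adds genes of unlike transcript length, so it is compared between libraries and not between letters. The FoxC share was higher at 12hpf, with 13% to 16.6% at 12hpf and 5.96% to 8.28% at 6hpf, as was the FoxP share with 11.1% to 13.3% and 6.06% to 7.52%. The FoxI genes held 2.15% to 4.04% at 12hpf and 0.101% to 0.191% at 6hpf. The FoxK share differed little by stage, with 17.4% to 20.7% at 12hpf and 15.8% to 17.6% at 6hpf. Its 2 genes went opposite ways without overlap between stages, each by less than 1.5-fold. At 12hpf foxk1 was lower (log2 fold-change -0.49 in TALE KD and -0.43 in control embryos) and foxk2 higher (0.37 and 0.53).

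**Figure D1:**
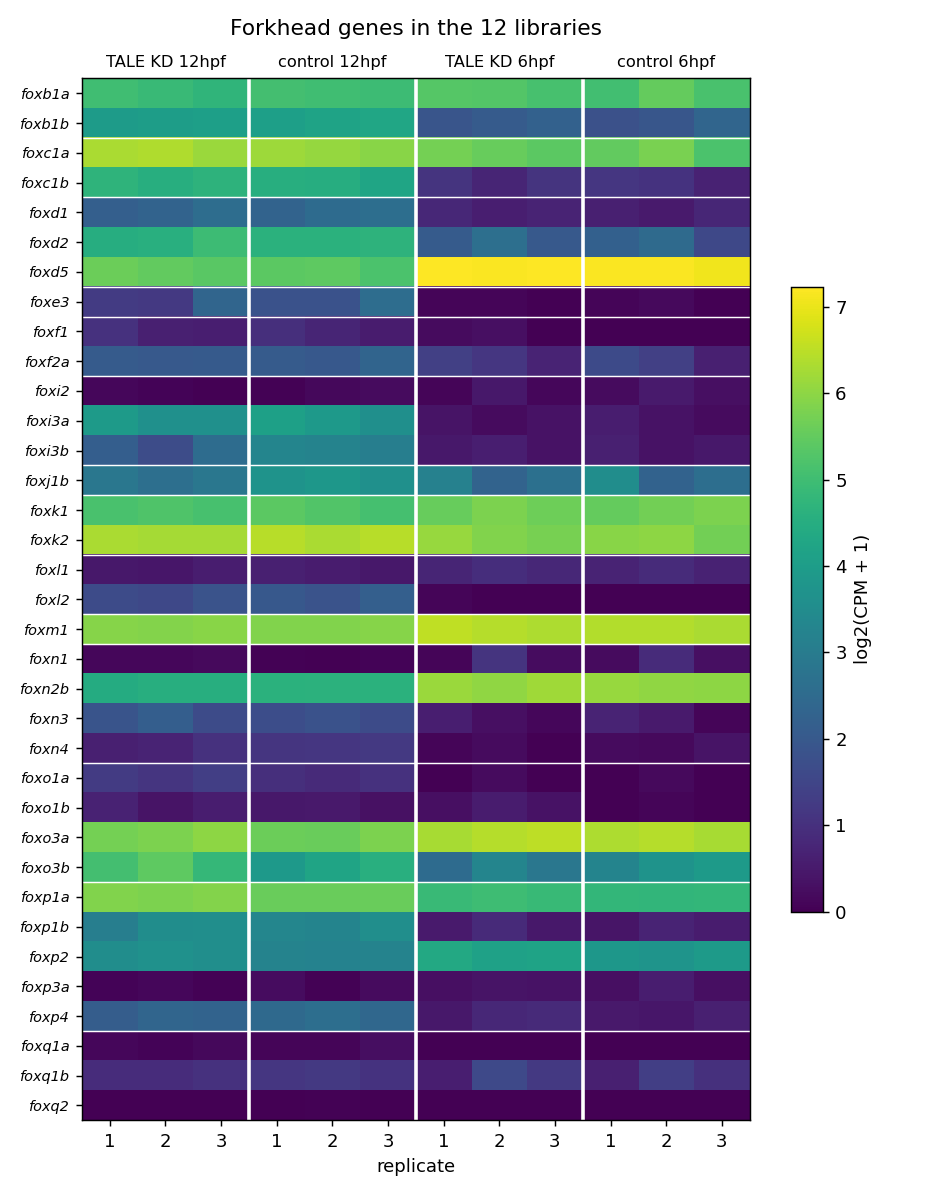
Levels of 35 of the forkhead genes (rows, grouped by subfamily letter) in the 12 libraries (columns), as log2(CPM + 1) in colour. Columns are replicates 1, 2 and 3 of TALE KD and control at 12hpf, then of TALE KD and control at 6hpf. The difference between stages is visible in most rows, for example foxd5, which is brighter at 6hpf, and foxi3a, which is dark at 6hpf in all 6 libraries.

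At 12hpf, 33 of the 39 genes had a mean of at least 10 counts and were tested for an effect of TALE KD. With edgeR, 1 gene, foxj1b, was called lower in TALE KD embryos and none was called higher, a call being an adjusted p up to 0.01 with a change of 1.5-fold or more. Of all 11640 genes tested, 1.55% were called, 1.26% lower and 0.292% higher. At an adjusted p up to 0.05 without a minimum fold-change there were 3 lower (foxi3b and foxj1b among them) and 3 higher (foxo3b, foxp1a and foxp2), against 6.49% lower and 4.16% higher of all genes. The log2 fold-changes of the 33 lay between -1.22 and 0.91, with 18 below and 15 above 0 and a median of -0.09, where the median of all genes was -0.003. In 9 genes every TALE KD library lay below every control library and in 5 every one lay above (17.3% and 15.2% of all genes), and in 19 the groups overlapped. The remaining 6 genes (foxi2, foxn1, foxp3a, foxq1a and foxq2 among them) had too few counts for a test.

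The number called depended on replicate 3 and on the tool. Under the replicate block the calls numbered 4 (4.09% of all genes), 3 lower with foxi3b and foxj1b among them (3.31%) and foxo3b higher (0.782%). DESeq2 also called 4 (2.8% of all genes), 3 lower (2.26%) and 1 higher (0.541%). Without replicate 3 of both groups 5 were called, 4 lower with foxe3 added and 1 higher (6.32%, 5.02% and 1.3% of 11529 genes). That run held replicates 1 and 2 alone, which were unusually alike. The chi-square per degree of freedom between their counts was 3.19 in TALE KD and 2.68 in control embryos. For 12hpf pairs with replicate 3 it was 13 to 24.6. Adjusted p without replicate 3 therefore rest on few libraries of small spread. With 1 library left out at a time, dropping TALE KD replicate 3 gave 4 calls and dropping control replicate 3 gave 1. Dropping replicate 1 or 2 of either group gave 0, where 8 or 9 genes had an unadjusted p under 0.05. With all libraries kept, 9 of the 33 forkhead genes had such a p in edgeR, as did 3156 of all 11640 genes tested.

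**Figure D2:**
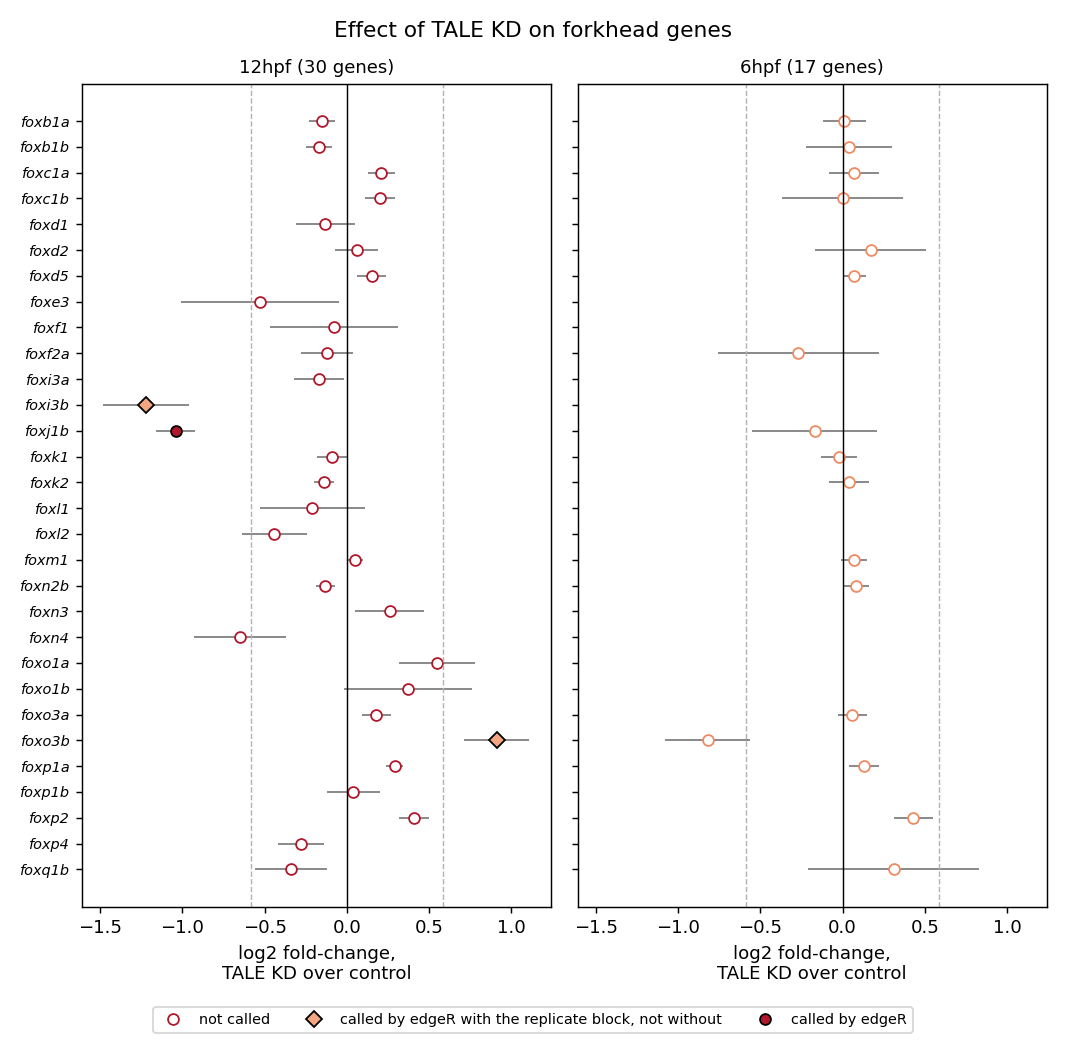
Log2 fold-change of TALE KD over control (x axis) for 30 of the forkhead genes tested at 12hpf (left) and 17 tested at 6hpf (right), with the standard error as bars and dashed lines at a fold-change of 1.5. The filled circle is foxj1b, called at 12hpf, the diamonds are foxi3b and foxo3b, called by edgeR with the replicate block and not without it, and open circles were not called.

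The gene foxj1b encodes a FoxJ1 factor, which switches on the genes of motile cilia. It was at 6.32, 5.2 and 6.25 CPM in TALE KD replicates 1, 2 and 3 at 12hpf, against 12, 13.2 and 11.3 CPM in the control replicates. The groups did not overlap. The log2 fold-change was -1.04 ± 0.12 (SE, edgeR adjusted p = 0.00257). It kept its direction with any 1 library left out, at -1.1 to -0.95, with adjusted p between 0.00141 and 0.0196 in edgeR. In a pool of whole embryos, fewer cells of a type and less RNA per cell cannot be told apart, here and for each gene below. Among 14 genes of FoxJ1 and RFX cilia programmes, 11 were tested and none was called by edgeR, with or without the block, or by DESeq2. An unadjusted p under 0.05 was found for 4, and the median log2 fold-change of the 11 was 0.01. Of all 11640 genes tested at 12hpf, 3156 had such a p, and the lists below are to be read beside that share. In this list the tubulin gene tubb4b had the lowest adjusted p (0.00706, edgeR) and was lower by a log2 fold-change of -0.30, short of 1.5-fold. It was abundant, with means of 587 CPM in TALE KD and 724 CPM in control embryos. At 6hpf its log2 fold-change was -0.25 (edgeR adjusted p = 0.491). The others with an unadjusted p under 0.05 were rfx4, lower (-0.13), and rfx2 (0.13) and ift88 (0.20), higher.

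The FoxI3 factors specify ionocytes, the ion-transporting cells of the zebrafish epidermis. The gene foxi3b was at 3.49, 2.19 and 4.9 CPM in TALE KD, against 8.87, 8.33 and 7.55 CPM in control embryos at 12hpf. All 3 TALE KD libraries were below all 3 control libraries, and replicate 3 was the highest of the TALE KD and the lowest of the control libraries. The log2 fold-change was -1.22 ± 0.26 (SE, edgeR adjusted p = 0.0241). It was called with the replicate block (-1.26, adjusted p = 0.000904, edgeR) and without replicate 3 (-1.69, adjusted p = 1.25e-07, edgeR). The last value rests on replicates 1 and 2 alone.

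Its paralog foxi3a was at 14.4, 11.3 and 11.4 CPM in TALE KD, against 16.2, 14.1 and 11.2 CPM in control embryos, and the groups overlapped (log2 fold-change -0.17 ± 0.15 SE, edgeR adjusted p = 0.511). Within a library, foxi3b counts were 0.242, 0.193 and 0.431 of foxi3a counts in TALE KD and 0.546, 0.59 and 0.675 in control embryos. The ratio was lower in all 3 TALE KD libraries than in any control library. The difference was -1.14 on the log2 scale (exact two-sided permutation p = 0.1, the smallest that 3 against 3 libraries can give, and 0.275 adjusted over 11 such paralog comparisons). RSEM divides reads shared by close paralogs, so such ratios depend in part on that division. Of 15 ionocyte and epidermis genes, 10 were tested and 4 had an unadjusted p under 0.05 (edgeR). In the main edgeR fit 1 was called lower (2 lower and 1 higher with the block, and 2 lower by DESeq2). It was dlx4b, a homeobox gene of the ectoderm border, at 8.68, 8.19 and 8.94 CPM in TALE KD, against 14.2, 15.5 and 12.7 CPM in control embryos (log2 fold-change -0.72, adjusted p = 0.00531, edgeR). The list median was 0, with gcm2 at -0.90 (adjusted p = 0.0164) and the ammonium transporter rhcga at 0.77 (adjusted p = 0.0368, both edgeR).

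For foxe3, a lens gene, replicate 3 stood apart in both groups. It was at 1.41, 1.28 and 4.09 CPM in TALE KD, against 2.53, 2.53 and 5.05 CPM in control embryos at 12hpf. Replicate 3 was the highest of each group, and the groups overlapped. The log2 fold-change was -0.53 ± 0.48 (SE, edgeR adjusted p = 0.523), -0.64 with the replicate block (adjusted p = 0.0252) and -0.93 without replicate 3 (adjusted p = 0.00286), the last of which was a call. Of 9 lens placode genes 9 were tested and none was called by edgeR (2 lower with the block, and 1 lower by DESeq2), with 4 at an unadjusted p under 0.05 and a median of -0.24. The lowest adjusted p were those of pax6a and six4a (-0.67 and -0.49, adjusted p = 0.0111 and 0.0149, edgeR). Among 17 forebrain and eye genes, 13 were tested and none was called by edgeR (3 lower with the block, and 2 lower by DESeq2), with 7 at an unadjusted p under 0.05 and a median log2 fold-change of -0.25. At an adjusted p up to 0.05 the eye field and retina genes rx2 (-1.70), rx3 (-0.28) and pax6a (-0.67) were lower (edgeR).

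**Figure D3:**
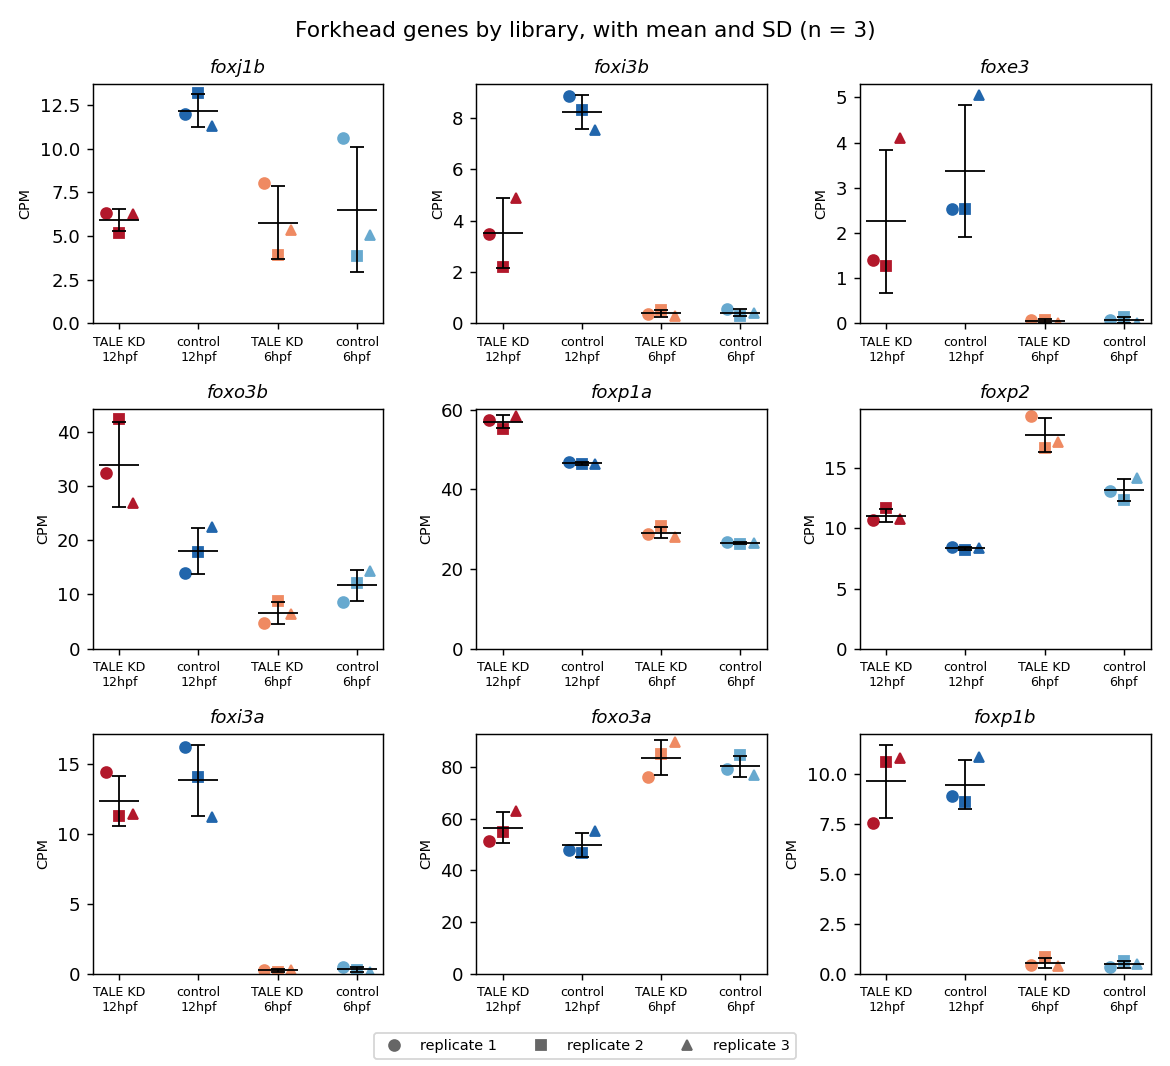
CPM (y axis, from 0) in each library for 9 forkhead genes, with the mean and SD of 3 libraries in black and the replicate number as the symbol. In each panel the groups run TALE KD and control at 12hpf, then TALE KD and control at 6hpf. At 12hpf foxj1b and foxi3b lie lower and foxo3b, foxp1a and foxp2 higher in all 3 TALE KD libraries than in any control library, while foxe3, foxi3a, foxo3a and foxp1b overlap.

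The FoxO factors act in metabolism, stress and quiescence and are kept in the cytoplasm when insulin and Akt signalling is active. The gene foxo3b was at 32.5, 42.4 and 26.9 CPM in TALE KD, against 14, 17.8 and 22.5 CPM in control embryos at 12hpf. All TALE KD libraries were above all control libraries, and replicate 3 lay closest between the groups. The log2 fold-change was 0.91 ± 0.20 (SE, edgeR adjusted p = 0.0283), called with the replicate block (0.90, adjusted p = 0.0015, edgeR) and without replicate 3 (1.27, adjusted p = 1.34e-08, edgeR). Its paralog foxo3a was at 51.4, 54.9 and 63.1 CPM in TALE KD, against 48, 46.6 and 55.3 CPM in control embryos, with overlapping groups (log2 fold-change 0.18 ± 0.09 SE, edgeR adjusted p = 0.255).

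All 4 FoxO genes had a log2 fold-change above 0, with a median of 0.46. None was called, against 1, foxo3b, with the block and by DESeq2, and 2 had an unadjusted p under 0.05. In foxo1a, named here after its values were seen, the groups did not overlap, at 1.41, 1.16 and 1.55 CPM in TALE KD, against 0.969, 0.806 and 1.04 CPM in control embryos (0.55, adjusted p = 0.177, edgeR). Among 17 insulin, PI3K and Akt pathway genes that act upstream of FoxO, 13 were tested and none was called by edgeR, with or without the block, or by DESeq2, 1 had an unadjusted p under 0.05, and the median was 0.05. Among 16 FoxO target genes 16 were tested and none was called by edgeR (1 higher with the block, and 1 higher by DESeq2), 5 had an unadjusted p under 0.05, and the median was -0.10. The targets bcl6a (-0.50) and sesn3 (0.34), a repressor gene and a stress-response gene, had an adjusted p up to 0.05 (edgeR). The target called with the block was gadd45aa, a growth arrest and DNA damage gene, named here after its values were seen. It was at 4.95, 8.85 and 3.17 CPM in TALE KD, against 0.82, 1.61 and 2.8 CPM in control embryos at 12hpf, without overlap (log2 fold-change 1.72, edgeR adjusted p = 0.0595, and 1.64 and 0.00644 with the block), and its log2 fold-change at 6hpf was -0.54 (edgeR adjusted p = 0.865).

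The FoxP factors mainly repress transcription and are studied in neurons, lung and lymphocytes of mammals. Of 4 tested, foxp1a and foxp2 were higher in TALE KD embryos by small and even amounts. The gene foxp1a was at 57.4, 55.2 and 58.4 CPM in TALE KD, against 47, 46.3 and 46.5 CPM in control embryos at 12hpf, without overlap. Its adjusted p of 0.00971 (edgeR) passed the threshold, while the log2 fold-change of 0.29 (standard error 0.05) was below the minimum of 1.5-fold. For foxp2 the levels were 10.7, 11.7 and 10.8 CPM in TALE KD, against 8.46, 8.21 and 8.35 CPM in control embryos, again without overlap, a log2 fold-change of 0.41 ± 0.09 (SE, edgeR adjusted p = 0.0244). Both stayed below the fold-change minimum in every alternative run. The paralog foxp1b was at 7.55, 10.6 and 10.8 CPM in TALE KD, against 8.94, 8.64 and 10.9 CPM in control embryos (0.04, standard error 0.16), and its groups overlapped. The other FoxP gene tested, foxp4, named here after its values were seen, went the other way without overlap. It was at 3.4, 4.17 and 3.89 CPM in TALE KD, against 4.51, 5.11 and 4.34 CPM in control embryos (-0.28 ± 0.14 SE, edgeR adjusted p = 0.257).

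Libraries of the same number show the part of replicate 3 in these results. The TALE KD over control ratios for replicates 1, 2 and 3 were 0.393, 0.263 and 0.648 for foxi3b and 0.558, 0.504 and 0.809 for foxe3. For foxo3b they were 2.33, 2.38 and 1.19. In these 3 genes replicate 3 gave the ratio nearest to 1. For foxj1b they were 0.528, 0.393 and 0.553, for foxp1a 1.22, 1.19 and 1.26, and for foxp2 1.27, 1.42 and 1.3, and replicate 3 was close to the others. In foxj1b replicate 3 was also nearest to 1, by a small margin over replicate 1.

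**Figure D4:**
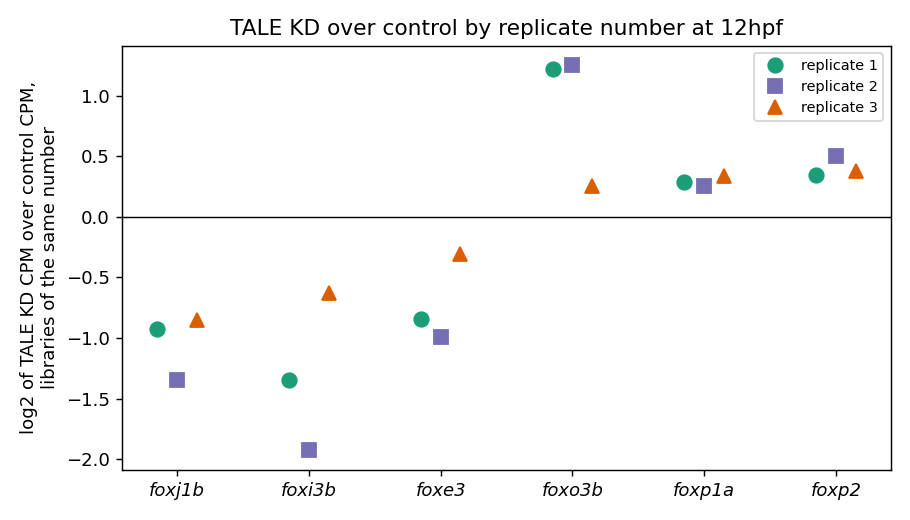
Log2 ratio of TALE KD CPM over control CPM between libraries of the same replicate number at 12hpf (y axis) for 6 forkhead genes (x axis), with 1 symbol per replicate number. Replicate 3 is nearest to 0 for foxi3b, foxe3 and foxo3b and lies with the other replicates for foxj1b, foxp1a and foxp2. For foxj1b it is also nearest to 0, by a small margin over replicate 1.

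None of the forkhead genes that follow was called for TALE KD at 12hpf by edgeR, with or without the block, or by DESeq2. The mesoderm gene foxc1a was at 78.8, 81.2 and 70 CPM in TALE KD, against 71.4, 66.7 and 60.9 CPM in control embryos, with a log2 fold-change of 0.21 ± 0.08 (SE, edgeR adjusted p = 0.134). Its groups overlapped by 1 library, while those of foxc1b, with a log2 fold-change of 0.20, did not overlap. Within a library the foxc1b over foxc1a ratio was nearly the same in the groups, at 0.316, 0.274 and 0.346 in TALE KD and 0.31, 0.323 and 0.3 in control embryos (log2 difference 0, exact two-sided permutation p = 1). Of 14 paraxial mesoderm genes 14 were tested and none was called by edgeR (1 lower with the block, and 1 lower by DESeq2), with 9 at an unadjusted p under 0.05 and a median of -0.21. The somite genes meox1 (-0.70), myf5 (-0.36) and tcf15 (-0.57) were lower at an adjusted p up to 0.05 (edgeR). Of 13 lateral mesoderm and vessel genes 12 were tested and 1, the heart gene nkx2.5, was called lower (-2.45, adjusted p = 0.00872, edgeR), with a list median of -0.07. At an adjusted p up to 0.05 the blood and vessel genes lmo2 (-1.86, adjusted p = 0.0347) and tal1 (-1.70, adjusted p = 0.049) were lower, and the mesoderm gene osr1 was higher (0.51, adjusted p = 0.00239, all edgeR), short of 1.5-fold. With the block 4 of them were called lower, and by DESeq2 1.

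Among neural plate genes, foxb1a was at 31, 29.1 and 25.3 CPM in TALE KD, against 32.8, 31.5 and 30.2 CPM in control embryos at 12hpf (-0.15 ± 0.08 SE, edgeR adjusted p = 0.289). The groups overlapped, while in foxb1b (-0.17) they did not. The neural plate gene foxd5 was at 47.7, 44.3 and 40.7 CPM in TALE KD, against 41.3, 42.5 and 35.1 CPM in control embryos (0.15, standard error 0.09). Of 12 neural plate genes 12 were tested and none was called by edgeR (1 lower with the block, and 1 lower by DESeq2), with 7 at an unadjusted p under 0.05 and a median of -0.15. At an adjusted p up to 0.05, sox3 (-0.48), sox19a (-0.22), sox19b (-0.26) and gbx2 (-0.85) were lower (edgeR).

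The log2 fold-changes of foxm1, foxk2 and foxn2b were small. The mitotic regulator gene foxm1 was at 58.9, 58.1 and 61.1 CPM in TALE KD, against 57, 56.8 and 58.9 CPM in control embryos at 12hpf (log2 fold-change 0.05 ± 0.05 SE, edgeR adjusted p = 0.602). The groups overlapped, and of 13 mitotic genes associated with FoxM1, 11 were tested and none was called by edgeR, with or without the block, or by DESeq2, with 5 at an unadjusted p under 0.05, a range of -0.22 to 0.30 and a median of 0.06. For foxk2 the levels were 77.9, 75.6 and 76 CPM in TALE KD, against 87.3, 78.6 and 86.6 CPM in control embryos, without overlap (-0.14 ± 0.06 SE, edgeR adjusted p = 0.153). The same held for foxn2b, at 20.9, 22.2 and 22 CPM in TALE KD, against 23.6, 24 and 23.6 CPM in control embryos (-0.13 ± 0.06 SE, edgeR adjusted p = 0.221).

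Among the lower expressed genes, foxl2, known from the ovary of mammals, was at 2.12, 1.94 and 2.6 CPM in TALE KD, against 2.94, 2.57 and 3.59 CPM in control embryos (-0.44 ± 0.20 SE, edgeR adjusted p = 0.195). The ranges overlapped, although each TALE KD library was below the control library of its number. The gut mesenchyme genes foxf1 (-0.08, standard error 0.39), foxf2a (-0.12, standard error 0.16) and foxl1 (-0.21, standard error 0.32) differed by less than their standard errors. For foxq1b the log2 fold-change was -0.34 (standard error 0.22), and its groups did not overlap. The other genes tested were foxd1, foxd2, foxk1, foxn3, foxn4 and foxo1b. Their log2 fold-changes for TALE KD lay between -0.65, for the retinal progenitor gene foxn4, and 0.37, for foxo1b. The groups did not overlap in foxn4 and overlapped in the others.

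At 6hpf, 17 of the 39 genes had enough counts for a test and none was called with edgeR, with the replicate block or with DESeq2. Of all 10202 genes 0.0392% were called in edgeR, 0.0196% in each direction, with 0.225% under the block and 0.274% in DESeq2. The log2 fold-changes lay between -0.82 and 0.43 with a median of 0.06, where that of all genes was 0.01. An unadjusted p under 0.05 was found for 2 genes, foxo3b and foxp2, and for 576 of all 10202 genes. Every TALE KD library lay above every control library in 3 genes (foxd5, foxp1a and foxp2) and below in 0, against 5.12% above and 5.94% below of all genes.

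The 2 genes with a low unadjusted p at 6hpf also differed at 12hpf. The gene foxp2 was at 19.4, 16.7 and 17.2 CPM in TALE KD, against 13.1, 12.4 and 14.2 CPM in control embryos at 6hpf, without overlap (log2 fold-change 0.43 ± 0.12 SE, edgeR adjusted p = 0.499). Its log2 fold-change at 12hpf was 0.41, in the same direction. The gene foxo3b was at 4.72, 8.79 and 6.36 CPM in TALE KD, against 8.66, 12.1 and 14.3 CPM in control embryos at 6hpf. Its highest TALE KD library just exceeded the lowest control library (log2 fold-change -0.82 ± 0.26 SE, edgeR adjusted p = 0.583, and 0.0606 with the replicate block). This direction was the opposite of that at 12hpf.

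The cilia regulator gene foxj1b was at 8.02, 3.94 and 5.35 CPM in TALE KD, against 10.6, 3.88 and 5.06 CPM in control embryos at 6hpf. Replicate 1 was the highest library of each group, and the groups overlapped (log2 fold-change -0.17 ± 0.38 SE, edgeR adjusted p = 0.998). For foxp1a the levels were 28.8, 30.7 and 28 CPM in TALE KD, against 26.8, 26.2 and 26.6 CPM in control embryos (0.13, standard error 0.09). The gene foxd5 was at 148, 146 and 149 CPM in TALE KD, against 144, 146 and 133 CPM in control embryos (0.07, standard error 0.07). In foxp1a and foxd5 the groups did not overlap, in foxd5 by a narrow margin.

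Whether the TALE KD effect differed by stage was asked with an interaction term in the fit over all 12 libraries. None of 33 forkhead genes had an adjusted p up to 0.01 in edgeR, against 0.0332% of all genes. An unadjusted p under 0.05 was found for 3 in edgeR, foxo3b, foxo1b and foxf1, and for 1022 of all 12043 genes. The values of foxo1b (-3) and foxf1 (-4.67) rest on few counts at 6hpf. Over the group, foxo1b had 12 counts in TALE KD and 1 in control embryos, and foxf1 had 5 and 0. DESeq2 gave 1 gene at an adjusted p up to 0.01 (0.515% of all genes). That gene was foxo3b, in which the effect at 12hpf minus that at 6hpf was 1.75 on the log2 scale (standard error 0.35). Its adjusted p was 0.0767 in edgeR, 0.0145 with the replicate block and 0.000475 in DESeq2. For foxj1b the difference was -0.86 ± 0.43 (SE, edgeR adjusted p = 0.615) and for foxi3b -1.18 (0.62, 0.629), so the absence of a call at 6hpf does not show that the effect of TALE KD on these genes was particular to 12hpf. The counts of foxi3b were too low at 6hpf for a test of their own, with at most 0.561 CPM in any library.

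More forkhead genes were called between stages than between groups. In TALE KD embryos 23 of 33 forkhead genes were called between 12hpf and 6hpf, 20 higher and 3 lower at 12hpf, against 30.7% higher and 24.6% lower of all 12043 genes (55.3% in all). In control embryos 23 were called, 19 higher and 4 lower, against 32.2% higher and 25.5% lower of all genes (57.8% in all). The 2 stages were deposited as separate tables, so stage and table cannot be told apart. The median log2 fold-change of all genes was 0.102 in TALE KD and 0.101 in control embryos, and with library totals in place of TMM it was 0.338 and 0.343. Of all calls, 55.5% in TALE KD and 55.8% in control embryos were higher at 12hpf, and 66.6% and 66.5% with library totals. With library totals the forkhead calls were 21 higher and 2 lower in TALE KD and 23 higher and 2 lower in control embryos.

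A gene that reached the count minimum through the 12hpf libraries alone could hardly be called lower at 12hpf. Of the 17 forkhead genes that reached it at both stages, 7 were higher, 3 lower and 7 not called in TALE KD embryos (41.2% and 17.6%, where 26.3% and 27.4% of all 9979 such genes were higher and lower). In control embryos 5 were higher, 4 lower and 8 not called (29.4% and 23.5%, against 27.5% and 28.5%). The other 16 reached the minimum at 12hpf only, where the libraries were larger. Of these, foxl1 was lower at 12hpf, with log2 fold-changes of -0.92 in TALE KD and -0.61 in control embryos that were not called.

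**Figure D5:**
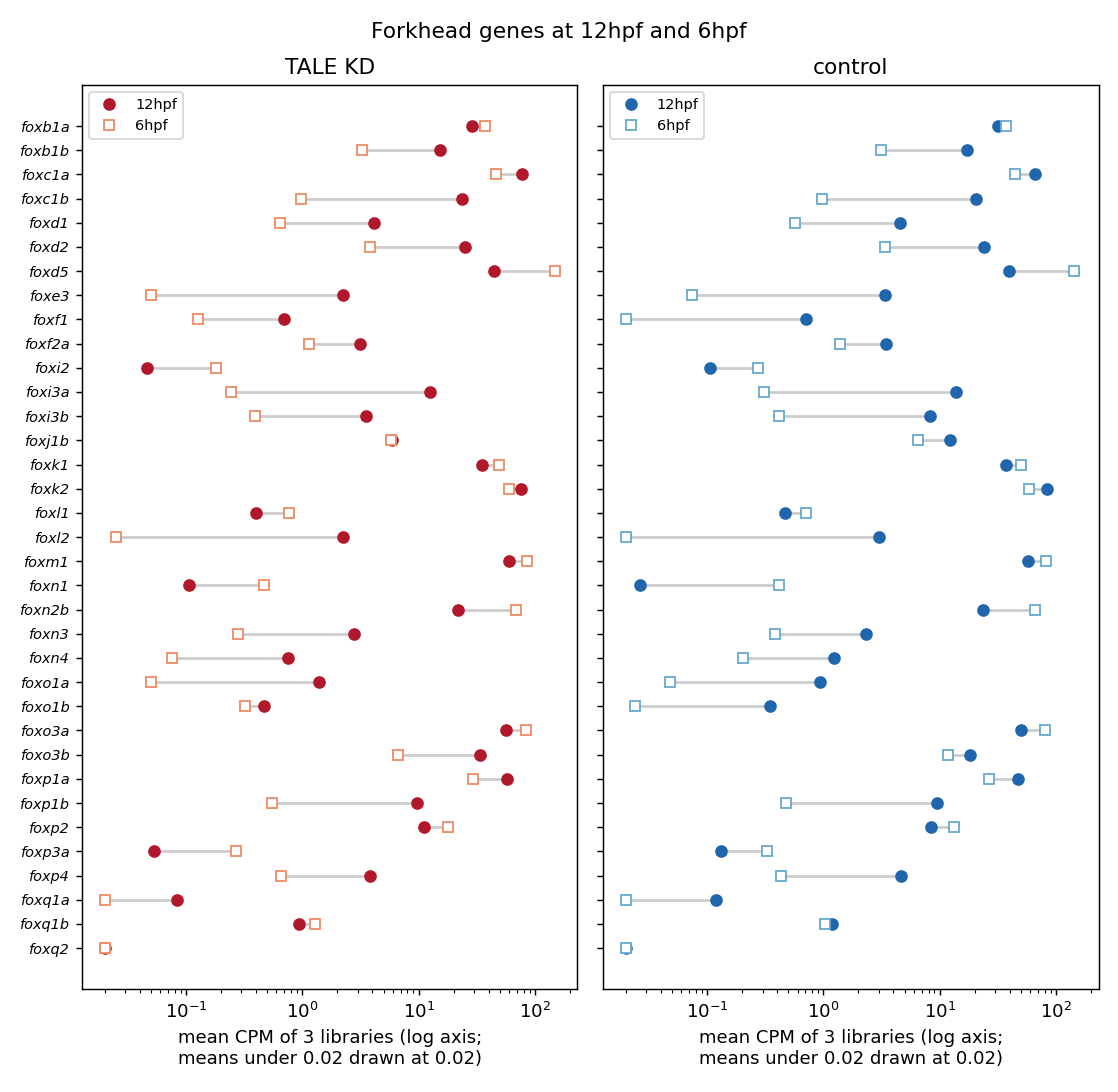
Mean CPM of 3 libraries (x axis, log scale) of 35 forkhead genes at 12hpf (filled circles) and 6hpf (open squares) in TALE KD (left) and control (right) embryos, with means under 0.02 CPM drawn at 0.02. A long distance to the right is that of foxl2, and foxd5 and foxn2b lie clearly to the left at 12hpf in both panels.

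The genes called lower at 12hpf were 3 in TALE KD and 4 in control embryos. All were among the 17 that reached the count minimum at both stages. Their shares there were 17.6% and 23.5%, against 27.4% and 28.5% of all such genes. The neural plate gene foxd5 was at 44.2 ± 3.53 CPM in TALE KD embryos at 12hpf and 148 ± 1.48 CPM at 6hpf, and at 39.6 ± 4.01 CPM in control embryos at 12hpf and 141 ± 6.96 CPM at 6hpf (SD, n = 3). Its log2 fold-change was -1.74 in TALE KD and -1.84 in control embryos, with a standard error of 0.08 in each. Every 12hpf library was far below every 6hpf library. The gene foxn2b, a member of the FoxN2 and FoxN3 branch, was at 21.7 ± 0.666 and 68.8 ± 3.92 CPM in TALE KD, against 23.7 ± 0.191 and 65.3 ± 2.89 CPM in control embryos (12hpf and 6hpf, SD, n = 3). Its log2 fold-changes were -1.65 and -1.47 (standard error 0.07 in each), again without overlap.

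Smaller declines were found in foxp2 and foxo3a. For foxp2 the log2 fold-change was -0.68 in TALE KD and -0.68 in control embryos (standard error 0.10 in each), but with library totals it was -0.44 and -0.43 and no longer a call. For foxo3a it was -0.56 in TALE KD (standard error 0.09), just short of 1.5-fold, and -0.69 in control embryos (adjusted p = 1.21e-05, edgeR), and -0.45 in control embryos with library totals, short of a call. The mitotic regulator foxm1 was at 59.4 ± 1.58 and 85.9 ± 5.47 CPM in TALE KD, against 57.6 ± 1.16 and 81.9 ± 2.76 CPM in control embryos (12hpf and 6hpf, SD, n = 3). Its log2 fold-changes of -0.53 and -0.52 had adjusted p of 4.38e-06 and 5.11e-06 (edgeR) and were below the fold-change minimum. Of the 11 mitotic genes tested beside it, 10 were called lower at 12hpf in TALE KD and 11 in control embryos, with medians of -0.90 and -0.95. These counts are from TMM scaling, and some values lay near the fold-change minimum, such as aurkb with -0.65 in control embryos.

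The log2 fold-changes between stages stood apart in several paralog pairs, FoxC1, FoxB1, FoxP1 and FoxO3 among them, and their difference was not tested. The gene foxc1a was at 76.7 ± 5.88 and 46.3 ± 5.22 CPM in TALE KD, against 66.3 ± 5.26 and 44.2 ± 9.37 CPM in control embryos (12hpf and 6hpf, SD, n = 3), with log2 fold-changes of 0.73 (called) and 0.58 (adjusted p = 0.00113, edgeR, just under 1.5-fold). Its paralog foxc1b, named here after its values were seen, was at 23.8 ± 1.36 and 0.971 ± 0.25 CPM in TALE KD, against 20.6 ± 2.1 and 0.968 ± 0.305 CPM in control embryos. The foxc1b log2 fold-changes were 4.63 and 4.40 (standard error 0.19 in each), larger than those of foxc1a. The FoxB1 values were those of foxb1a, with -0.38 in TALE KD and -0.24 in control embryos, and foxb1b, with 2.25 and 2.44. In the FoxP1 pair, foxp1a had log2 fold-changes of 0.97 and 0.80 and foxp1b of 4.11 and 4.27. The FoxO3 pair differed in sign, with -0.56 in TALE KD and -0.69 in control embryos for foxo3a and 2.36 and 0.61 for foxo3b.

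The cilia regulator gene foxj1b stood at the same mean level at both stages in TALE KD embryos, 5.92 ± 0.627 CPM at 12hpf and 5.77 ± 2.07 CPM at 6hpf, and at 12.2 ± 0.984 and 6.51 ± 3.57 CPM in control embryos (SD, n = 3). The log2 fold-changes were 0.04 (standard error 0.31) in TALE KD and 0.90 ± 0.30 (SE, edgeR adjusted p = 0.0134) in control embryos. The control value was called without control replicate 1 of 6hpf, the highest library of its group (1.45, adjusted p = 0.000185, edgeR), and with the replicate block (0.98, adjusted p = 0.00298). It was called in only 2 of the 12 runs with 1 library left out, which ranged down to 0.63 (adjusted p up to 0.0651, edgeR). Without replicate 3 of 12hpf it was not called (0.95, adjusted p = 0.0222, edgeR). For foxo3b the mean was 33.9 ± 7.87 CPM at 12hpf and 6.63 ± 2.05 CPM at 6hpf in TALE KD, against 18.1 ± 4.27 and 11.7 ± 2.87 CPM in control embryos. Its log2 fold-changes were 2.36 ± 0.26 (SE, edgeR adjusted p = 1.36e-06) and 0.61 ± 0.24 (SE, edgeR adjusted p = 0.0324).

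The FoxI3 genes, the lens gene foxe3, foxl2 and foxf1 were low at 6hpf. For foxi3a the mean was 12.4 ± 1.78 CPM at 12hpf and 0.243 ± 0.0797 CPM at 6hpf in TALE KD, against 13.9 ± 2.54 and 0.308 ± 0.163 CPM in control embryos (SD, n = 3), with log2 fold-changes of 5.65 and 5.47. For foxi3b the log2 fold-changes were 3.13 in TALE KD and 4.31 in control embryos.

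The lens gene foxe3 had 273 and 2 counts in TALE KD (ratio 46.1 after scaling, 95% exact interval 12.6 to 382, for counting error only) and 255 and 3 counts in control embryos (43.4, 14.7 to 212). For foxl2 there were 249 and 1 counts in TALE KD (84, 14.9 to 3330) and 232 and 0 counts in control embryos, at least 39.5-fold higher at 12hpf with the floor of 3 counts over the group. The lateral mesoderm gene foxf1 was found in control embryos only at 12hpf, with 55 counts against 0 at 6hpf, at least 9.36-fold higher, and in TALE KD embryos at 0.703 ± 0.29 and 0.126 ± 0.116 CPM (12hpf and 6hpf, SD, n = 3). The TALE KD call of foxf1 was lost in 6 of the 12 runs with 1 library left out.

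A few low genes did not follow this pattern. The gut mesenchyme gene foxl1 was at 0.4 ± 0.0721 and 0.774 ± 0.122 CPM in TALE KD, against 0.465 ± 0.0917 and 0.709 ± 0.133 CPM in control embryos (12hpf and 6hpf, SD, n = 3), with log2 fold-changes of -0.92 and -0.61 that were not called. The genes foxi2, foxn1 and foxp3a had higher mean CPM at 6hpf than at 12hpf in both groups and were untested, and are named here after their values were seen. The thymus gene foxn1 was at 0.0749, 1.14 and 0.184 CPM in TALE KD, against 0.16, 0.863 and 0.234 CPM in control embryos at 6hpf, so replicate 2 held most of it in each group. Likewise, foxq1b was at 0.524, 2.05 and 1.29 CPM in TALE KD, against 0.561, 1.51 and 1.01 CPM in control embryos at 6hpf, with replicate 2 the highest and replicate 1 the lowest of each group. Its log2 fold-changes between stages were -0.44 (standard error 0.41) in TALE KD and 0.20 (standard error 0.41) in control embryos.

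Some of these genes lie next to each other. In RefSeq's annotation of assembly GRCz12tu, where 38 of the 39 genes were matched, foxc1a, foxf2a and foxq1a are neighbours, with 1 other protein-coding gene between foxc1a and foxf2a and 0 between foxf2a and foxq1a, and foxc1b is 1 gene away from foxq1b. The genes foxd2 and foxe3 are adjacent. At 12hpf foxd2, also named after its values were seen, was at 21.6, 22.5 and 30.2 CPM in TALE KD, against 23.5, 23.6 and 24.7 CPM in control embryos (0.06, standard error 0.13, and -0.09 without replicate 3), while foxe3 is the gene described above with replicate 3 highest in each group. Replicate 3 was also the highest foxd2 library of each group, in control embryos by a narrow margin. A relation to gene position was not tested.

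Set beside other families of developmental regulators at 12hpf, 1 of 33 forkhead genes was called lower in TALE KD embryos. The numbers were 3 of 24 sox genes, 0 of 13 tbx genes and 8 of 42 hox genes tested, and none of these families had a gene called higher. An unadjusted p under 0.05 (edgeR) was found for 9 forkhead, 14 sox, 7 tbx and 25 hox genes, and for 3156 of all 11640 genes. With the block the counts were 3 lower and 1 higher for the forkhead, 7 and 2 for the sox, 0 and 0 for the tbx and 13 and 0 for the hox genes, and by DESeq2 3 and 1, 6 and 2, 0 and 0, and 10 and 0. The median log2 fold-changes were -0.09 for the forkhead, -0.23 for the sox, -0.16 for the tbx and -0.40 for the hox genes. The difference between families was not tested. Of 8 forkhead genes listed outside this set, 1 was called at 12hpf, the ectoderm gene foxi1, which was higher (0.75, adjusted p = 0.00431, edgeR). The cilia gene foxj1a, paralog of foxj1b, had a log2 fold-change of -0.41 and foxd3, a neural crest gene, of -0.47, both at an adjusted p up to 0.05 (0.0132 and 0.0316, edgeR).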

How the data were processed

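Gene expression was measured in 12 RNA-seq libraries, 3 biological replicates per group by their titles, from polyA RNA. The deposited values were estimated counts per gene made by the authors with RSEM (version 1.2.28 in the submitters' processing notes) on zebrafish build DanRer10, 1 table per stage, and were rounded here to whole counts. No gene lengths, genome or sequences were used. The 12hpf columns name no stage and were taken as 12hpf from their table's name, the other table's columns naming 6hpf, and 0 columns of per-sample values were left out.

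TALE KD was compared with control at each stage with edgeR 4.0.16 in R 4.3.3 (limma 3.58.1, quasi-likelihood test, TMM, Benjamini-Hochberg adjustment over all genes tested, genes averaging 10 or more counts in the 6 libraries). Stages and the interaction were tested in 1 fit of all 12 libraries (genes averaging 10 or more counts in a group). A call required an adjusted p up to 0.01 with a change of 1.5-fold or more. The scripts were tested on simulated data. The study's text leaves out 1 outlier replicate at 12hpf without naming it in the sources used here, so all libraries were kept and each was left out in turn. The alternatives were DESeq2 1.42.0, library totals, no count minimum, a minimum of 20, a replicate block, an adjusted p up to 0.05 alone, and no replicate 3 at 12hpf.

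TALE KD and control libraries of the same number deviated together from their group means, with correlations of 0.34, 0.37 and 0.58 at 12hpf and 0.46, 0.34 and 0.50 at 6hpf, which is the source of the pairing. At 12hpf, replicates 1 and 2 of different groups also correlated (0.30 and 0.32).

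Values in every library are given for genes called for TALE KD with or without the block, those with an adjusted p up to 0.05 there, those with the most counts of their subfamily at either stage, the 5 with the largest change in each direction among control stage calls, and paralogs of the first 2 kinds. Others are named after their values were seen, to complete a pair or a count. Members and gene lists were chosen with earlier results of these data known. Values of 1 subfamily are not reported here and are left out of the plots, and counts over the set include it.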

Additional observations from a re-analysis of the deposited data

Results flagged for a closer look

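In 2 of the 17 forkhead genes tested at both stages, every TALE KD library lay on one side of the control library of its number at 12hpf and on the other side at 6hpf, as did 5.29% of all 9979 such genes. In foxo3b the TALE KD over control ratios were 2.33, 2.38 and 1.19 at 12hpf and 0.545, 0.724 and 0.444 at 6hpf. The difference of the 2 effects was 1.75 on the log2 scale (adjusted p = 0.0767, edgeR), and the edgeR value with the replicate block was 1.73 (adjusted p = 0.0145). In foxn2b the ratios were 0.886, 0.926 and 0.931 at 12hpf and 1.02, 1.01 and 1.14 at 6hpf, and the difference was -0.19 on the log2 scale (standard error 0.10, adjusted p = 0.63, edgeR).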

How the results depend on the processing

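The number of forkhead genes called for TALE KD at 12hpf was 1, and 4 by DESeq2, 4 with the replicate block, 5 without replicate 3 of both groups, 6 at an adjusted p up to 0.05 alone, and 0 to 4 with 1 library left out. At 6hpf it was 0 in every alternative run, the block included. The number with an effect that differed between stages was 0, and 1 by DESeq2. Between stages it was 23 in TALE KD and 23 in control embryos and 21 to 24 and 21 to 26 under the alternatives with the same thresholds.

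The changes of sign listed here were in values that were not called. For TALE KD at 12hpf without replicate 3, foxf2a was 0.02 and foxd2 was -0.09. Between stages in TALE KD, foxj1b was -0.01 without replicate 3. With 1 library left out, the 12hpf values ranged from -0.40 to 0.22 for foxf1, -0.21 to 0.02 for foxf2a and -0.04 to 0.18 for foxp1b. The 6hpf values ranged from -0.09 to 0.16 for foxb1a, -0.07 to 0.23 for foxc1a, -0.65 to 0.11 for foxf2a, -0.49 to 0.37 for foxj1b, -0.08 to 0.11 for foxk2 and -0.23 to 0.70 for foxq1b. Between stages they ranged from -0.19 to 0.36 for foxj1b and -0.83 to 0.09 for foxq1b in TALE KD, and -0.08 to 0.59 for foxq1b in control embryos. The cause of these changes was not tested. At 6hpf 22 of the 39 genes had too few counts for a test, and 16 of them reached the minimum at 12hpf only. The 6hpf libraries were smaller, and many of these genes, such as foxe3 and foxl2, were also lower in CPM at 6hpf. The part of each was not tested.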

Other observations

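Other genes near the forkhead programmes differed at 12hpf. Of 8 pharyngeal endoderm genes none was called for TALE KD by edgeR, 5 had an unadjusted p under 0.05, and 1 lower and 2 higher were called both with the block and by DESeq2. At an adjusted p up to 0.05, nkx2.3 (-1.23) and nkx2.7 (-0.27) were lower and tbx1 (0.43) was higher in TALE KD embryos (edgeR). The change of tbx1 was short of 1.5-fold, and it was not among the 2 called higher. The largest log2 fold-change of the list was 1.49. Of the 12 genes of the TALE family itself, meis1a (-0.74) was called lower and pbx2 (1.5) higher.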
